A study of Mus musculus with 2 samples.

Results

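The hypoxia-response cells are the 120 neurosphere cells that spent the largest share of their transcripts on 5 genes of the low-oxygen response, out of 3309 cells that passed the filters and 4000 barcodes in all. They were chosen by measured values. For each cell the unique molecular identifiers (UMIs, 1 per captured transcript) of Bnip3, Ankrd37, Vegfa, Pdk1 and Slc2a1 were summed and divided by the cell's total. They are set against the 2097 cells in which none of the 5 genes had a UMI, called the 0-UMI cells below, and the remaining 1092 cells lie between. The 5 genes served only to choose the cells and are described once, with no test. All other genes are independent of the rule in what they count, although they were read from the same cells.

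Primary neurospheres are free-floating colonies, here raised from CD1 mouse embryos, from cells of the walls of the lateral ventricles of the forebrain. All of them were grown in serum-free medium with leukemia inhibitory factor (LIF) at 10 ng/mL for 7 to 10 days, and the protocol also names an additive EFH that it does not spell out. Spheres of at least 50 µm were counted as primitive neurospheres, which are colonies of an early LIF-dependent neural stem cell. The labels list 2 samples of this single group, yet the 1 count table gives no sample for any barcode, so the table was read as 1 sample. No oxygen treatment is described, both sets of cells come from the same culture conditions, and the texts speak of nuclei in one place and of dissociated cells in another. Cells of 1 sample are not replicates. The comparisons below therefore carry no test and no p-value, and each interval is an exact 95% interval that covers counting error only.

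Cells sense oxygen through the hypoxia-inducible factors (HIFs). When oxygen is plentiful, prolyl hydroxylases of the Egln family mark HIF-alpha proteins for destruction by the Vhl ubiquitin ligase. When oxygen is short, the HIF-alpha proteins persist, pair with Arnt and bind a short motif near genes for glucose uptake, glycolysis, lactate export, pH control, blood vessel growth and the removal of mitochondria.

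The 120 cells held 468067 UMIs in all, with 1506, 3350.5 and 11453 UMIs in the lowest, the median and the highest cell. The 0-UMI cells held 9511808 UMIs, with 1500, 3895 and 22084 UMIs in the lowest, the median and the highest cell. The median number of genes detected was 1778.5 in the hypoxia-response cells and 2005 in the 0-UMI cells. Mitochondrially encoded transcripts took 2.40% of the UMIs in the hypoxia-response cells and 3.07% in the 0-UMI cells, and ribosomal protein genes took 7.63% in the hypoxia-response cells and 7.80% in the 0-UMI cells. The nuclear RNA Malat1 took 0.478% of the UMIs in the hypoxia-response cells and 0.281% in the 0-UMI cells. The part of depth and of nuclear RNA in the results below was not tested, and values at equal depth are given where a result is read per cell.

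By the rule's own measure, the share ran from 11.6 to 73.2 rule-gene UMIs per 10000 UMIs in the 120 cells, with a median of 19.8. These cells held 2, 8 and 25 rule-gene UMIs in the lowest, the median and the highest cell. Vegfa, the main growth factor for blood vessels, had 365 UMIs in 109 of the cells, and Bnip3, a mitochondrial receptor for mitophagy, had 359 UMIs in 100. Ankrd37, an ankyrin repeat protein and known HIF-1 target, had 144 UMIs in 61 cells. Pdk1, a pyruvate dehydrogenase kinase, had 119 UMIs in 68 cells, and Slc2a1, the glucose transporter GLUT1, had 86 UMIs in 46 cells. Of the 120 cells, 92 held UMIs of at least 3 of the 5 genes, 14 held 2 of them and 14 held a single one, which was Vegfa in 10 cells, Bnip3 in 3 and Pdk1 in 1. The limit lies in a smooth run of values. The last cells inside had 2 rule-gene UMIs of 1702 UMIs, 12 of 10293 and 7 of 6037, or 11.8, 11.7 and 11.6 per 10000. The next cells outside had 9 of 7949, 6 of 5389 and 14 of 12796, or 11.3, 11.1 and 10.9 per 10000.

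The label was checked with 54 other genes known as HIF targets, none of them used by the rule. Together they reached 10909 counts per 1000000 UMIs (CPM) in the hypoxia-response cells and 3308 CPM in the 0-UMI cells, a ratio of 3.30 (counting interval 3.20 to 3.40). For a comparison per cell, 1500 UMIs were drawn at random from each cell. The hypoxia-response cells then held 2, 16 and 45 UMIs of the 54 genes in the lowest, the median and the highest cell. The 0-UMI cells held 0, 5 and 17 UMIs. The groups overlap at their edges: 8 of the 120 hypoxia-response cells lay at or below the median of the 0-UMI cells, 2 of the 2097 0-UMI cells (0.0954%) reached the median of the hypoxia-response cells, and 47 hypoxia-response cells lay above every 0-UMI cell. The label of a hypoxia response was therefore kept.

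**Figure D1:**
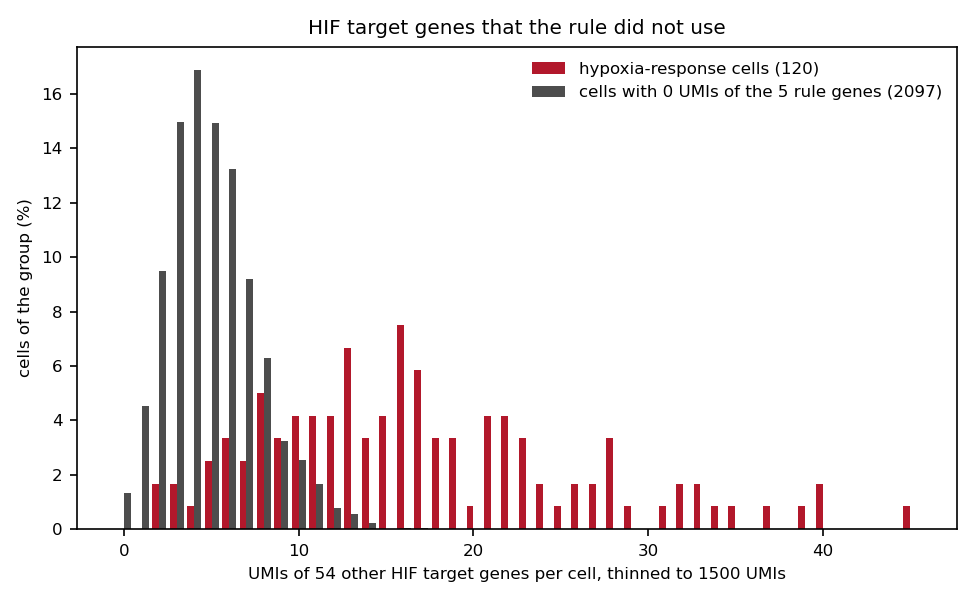
UMIs of the 54 HIF target genes outside the rule in each cell after thinning to 1500 UMIs (horizontal axis) against the percentage of the cells of each group (vertical axis), with the 120 hypoxia-response cells in red and the 2097 cells with 0 UMIs of the rule genes in grey. The red bars spread widely around a median of 16 and reach 45, and the grey bars are packed around a median of 5 and end at 17.

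Genes were compared over all cells of a group summed, and a gene was called past the fold at a ratio of at least 2 or at most 0.5 among the 6848 genes whose levels averaged at least 20 CPM over both groups. Of all these genes 399 (5.83%) were higher past the fold in the hypoxia-response cells and 191 (2.79%) were lower. The median ratio over all of them was 0.988. Of the 54 HIF target genes 42 were in that comparison, and 37 were higher past the fold against the 5.83% of all genes, 1 was lower, and their median ratio was 4.03. A gene expressed in the hypoxia-response cells alone could pass the 20 CPM minimum only by being high there. With the minimum set on the level over all 3309 cells instead, 30 HIF target genes stayed in the comparison, of which 26 were higher and 1 lower with a median ratio of 3.52, while 236 of all 6734 genes (3.5%) were higher and 266 (3.95%) lower with a median of 0.955.

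HIF targets that were nearly silent in the 0-UMI cells stood farthest apart. Ndrg1, a differentiation-related gene strongly induced by low oxygen, had 98 UMIs in 38 of the 120 hypoxia-response cells and 14 UMIs in 13 of the 2097 0-UMI cells, a ratio of 142 (80.9 to 269.8). Slc16a3, the lactate exporter MCT4, had 117 UMIs in 60 hypoxia-response cells and 19 UMIs in 18 0-UMI cells, a ratio of 125 (76.7 to 215). Both genes were thus close to absent in the 0-UMI cells, and within the hypoxia-response group they were seen in a part of the cells, with at most 15 UMIs of Ndrg1 and 6 of Slc16a3 in 1 cell. Among the cells ranked 121 to 240 by share, just outside the group, Ndrg1 had 14 UMIs (30.7 CPM) and Slc16a3 had 24 (52.6 CPM). Ndufa4l2, a HIF-1 target that lowers the activity of respiratory complex I, had 21 UMIs in 11 hypoxia-response cells and 4 UMIs in 4 0-UMI cells, a ratio of 107 (36.0 to 427). Car9, the carbonic anhydrase that helps cells hold their pH, had 18 UMIs in 11 hypoxia-response cells and 0 UMIs in the 0-UMI cells. Against the limit of 3 UMIs that a count of 0 allows over that whole group, its level as counted was at least 122-fold higher in the hypoxia-response cells. The exact counting interval of the ratio, which also takes in the error of those 18 UMIs, starts at 89.3, and the mean level of Car9 stayed under the 20 CPM minimum. Its relative Car12 had 14 UMIs in the hypoxia-response cells and 13 in the 0-UMI cells, a ratio of 21.9 (9.54 to 50.6), also under the minimum.

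The abundant HIF targets were detected in most of the hypoxia-response cells. Fam162a, a mitochondrial protein induced by HIF-1, averaged 2290 CPM (1072 UMIs) in the hypoxia-response cells and 329 CPM (3128 UMIs) in the 0-UMI cells, a ratio of 6.96 (6.49 to 7.47). It was found in 117 of the 120 hypoxia-response cells, at 0, 20.3 and 73.2 UMIs per 10000 in the lowest, the median and the highest cell, while the 0-UMI cells had a median of 2.77 and a highest value of 24.4. Ddit4, also called REDD1, a brake on mTORC1 signalling, averaged 1171 CPM in the hypoxia-response cells and 175 CPM in the 0-UMI cells, a ratio of 6.71 (6.08 to 7.39), and was found in 99 of the 120 cells. Mif, a secreted cytokine, averaged 1775 CPM in the hypoxia-response cells and 629 CPM in the 0-UMI cells, a ratio of 2.82 (2.62 to 3.03), and was found in 115 of the 120 hypoxia-response cells and 1804 of the 2097 0-UMI cells. For Fam162a the median hypoxia-response cell stood under the highest of the 0-UMI cells but far above their median.

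Promoters of 3 of these genes are shown because the genes were higher in the hypoxia-response cells and the HIF motif has a known core. The core was searched as ACGTG or GCGTG on both strands, overlaps included, in the 250 bases before each gene's start in the RefSeq promoter table for build GRCm38.p6, the assembly also called mm10. Among the RefSeq windows, those of 36 of the 42 matched HIF targets outside the rule (85.7%) held at least 1 core, against 41.5% of all 27025 genes in the table and 65.6% of the 5517 genes compared here that matched. Such a short core is common, and a match is a description of the letters, not a bound site. The windows of these HIF targets also held a second short motif, that of the metallothioneins below, more often than the other windows did. The higher share is thus not particular to the HIF core. The sequences run 5′ to 3′ on the gene's strand, capitals mark the core on either strand, and a window ends early where GENCODE release M21 starts the gene farther upstream. Egln3 is at chr12:54203875-54204124 on the minus strand with 1 core, Ddit4 at chr10:59951835-59952020 on the minus strand with 2, and Fam162a at chr16:36071595-36071811 on the minus strand with 5. Windows of 5 more genes named here were read in the same way, and Eno2 and Igfbp5 held 0 cores, Mt2 held 1, and Mt1 and Hes5 held 2 each.
Egln3: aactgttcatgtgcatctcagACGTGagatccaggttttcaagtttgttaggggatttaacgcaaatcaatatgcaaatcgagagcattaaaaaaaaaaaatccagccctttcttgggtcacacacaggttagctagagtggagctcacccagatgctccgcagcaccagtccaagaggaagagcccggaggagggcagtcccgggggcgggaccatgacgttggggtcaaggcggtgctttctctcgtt
Ddit4: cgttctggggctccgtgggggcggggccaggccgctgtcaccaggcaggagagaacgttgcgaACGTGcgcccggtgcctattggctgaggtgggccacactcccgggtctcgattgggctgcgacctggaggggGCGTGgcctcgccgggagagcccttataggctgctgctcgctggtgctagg
Fam162a: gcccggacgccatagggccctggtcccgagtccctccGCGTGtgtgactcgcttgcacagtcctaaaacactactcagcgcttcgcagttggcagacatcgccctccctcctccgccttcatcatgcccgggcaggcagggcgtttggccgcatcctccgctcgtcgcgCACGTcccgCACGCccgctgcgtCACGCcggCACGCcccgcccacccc

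The genes that sense oxygen divided into feedback targets and factors. Egln3, a prolyl hydroxylase that HIF itself induces, averaged 295 CPM in the hypoxia-response cells and 21.9 CPM in the 0-UMI cells, a ratio of 13.5 (10.8 to 16.8), and was seen in 62 of the 120 cells. Egln1, the main oxygen sensor of the family and also a HIF target, had a ratio of 3.18 (2.32 to 4.28), and Vhl, the ubiquitin ligase subunit, one of 2.97 (1.90 to 4.46). With every cell thinned to 1500 UMIs, that of Vhl was 1.64. Egln2, a family member outside the list of HIF targets, was at 44.9 CPM in the hypoxia-response cells and 39.8 CPM in the 0-UMI cells, a ratio of 1.13 (0.689 to 1.75). The factor genes themselves were within the fold or too low to compare. Hif1a was at 74.8 CPM in the hypoxia-response cells and 91.6 CPM in the 0-UMI cells, a ratio of 0.817 (0.565 to 1.14). Its partner Arnt had 9 UMIs in the hypoxia-response cells and 137 in the 0-UMI cells, and Epas1, which encodes another HIF-alpha protein, had 2 UMIs in the hypoxia-response cells and 14 in the 0-UMI cells. Of the 13 genes of this machinery 7 were compared, and 3 were higher past the fold, against 5.83% of all genes compared, and 0 lower, with a median ratio of 1.19. Of these 3, Egln1 and Egln3 are also in the list of HIF targets and were already counted there. HIF activity is set mainly on the protein, which was not measured here.

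Glycolysis stood out as a whole. Its 17 enzyme genes summed to 11142 CPM in the hypoxia-response cells and 3792 CPM in the 0-UMI cells, a ratio of 2.94 (2.85 to 3.02). At 1500 UMIs per cell, the hypoxia-response cells held 1, 16 and 37 of these UMIs in the lowest, the median and the highest cell, and the 0-UMI cells held 0, 5 and 26. All 17 genes were compared, and 15 were higher past the fold, against 5.83% of all genes compared, and 0 lower, with a median ratio of 3.07. With the minimum set over all kept cells, 13 of 15 were higher, against 3.5% of all genes, and 0 lower, with the same median ratio. The list covered every step from hexokinase to lactate dehydrogenase. Eno2, the enolase isoform of neurons, had 54 UMIs in the hypoxia-response cells and 58 in the 0-UMI cells, a ratio of 18.9 (12.8 to 27.9). Pfkl, a subunit of the committed step phosphofructokinase, had a ratio of 7.26 (5.78 to 9.05), and Hk2, the hexokinase that HIF induces, one of 5.42 (4.01 to 7.23). Hk1, the constitutive hexokinase, had a lower ratio of 2.82 (1.91 to 4.05).

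Among the abundant enzymes, Tpi1, the triose phosphate isomerase, averaged 1639 CPM in the hypoxia-response cells and 363 CPM in the 0-UMI cells, a ratio of 4.52 (4.17 to 4.89). Gpi1, the glucose phosphate isomerase, had a ratio of 3.41 (3.07 to 3.77), Ldha, the lactate dehydrogenase chain that favours lactate, one of 3.37 (3.15 to 3.60), and Aldoa, the aldolase, one of 3.01 (2.80 to 3.22). Pkm, the pyruvate kinase, was nearest to the fold with 2.16 (2.01 to 2.32), and had 1.80 when the group was widened to 240 cells. The 2 enzyme genes within the fold were the sister chains of induced ones. Ldhb, the lactate dehydrogenase chain of oxidative tissue, was at 523 CPM in the hypoxia-response cells and 385 CPM in the 0-UMI cells, a ratio of 1.36 (1.19 to 1.55), and Pfkm, the muscle phosphofructokinase, had one of 1.32 (0.807 to 2.05). Gapdh and Pgk1 had 16 and 22 UMIs in the hypoxia-response cells. With Ldha, Tpi1 and Eno1 they have near-identical copies in the genome that can share their reads, and the values of these genes are uncertain. Pgk1 was at 2.51 (1.54 to 3.92), or 1.85 with 240 cells.

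**Figure D2:**
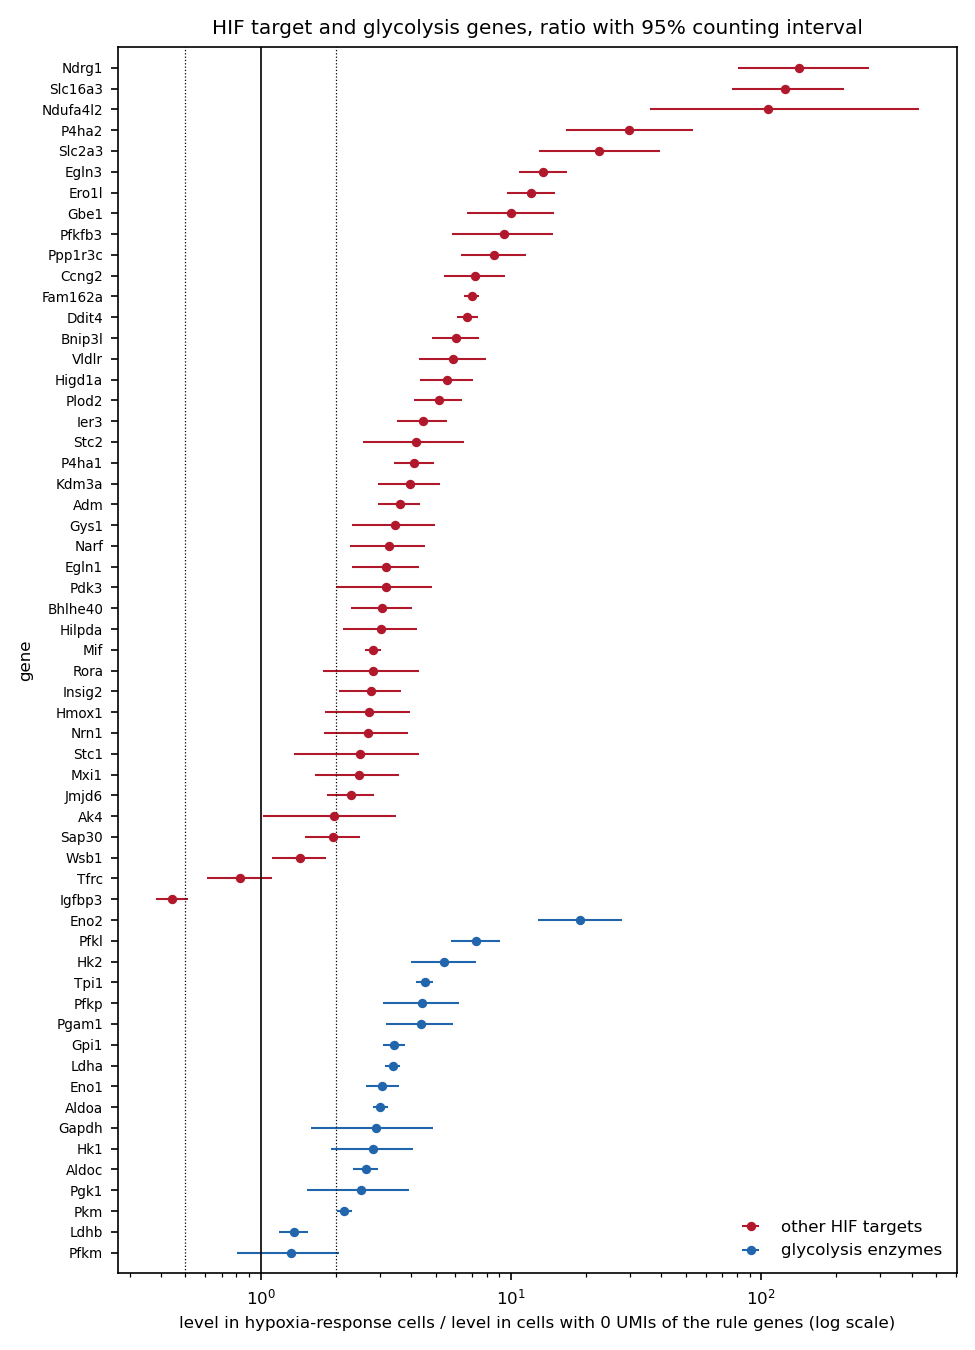
Ratio of the level in the hypoxia-response cells to the level in the cells with 0 UMIs of the rule genes (horizontal axis, log scale) for each HIF target (red) and glycolysis enzyme (blue) that was compared, with bars for the 95% counting interval, a solid line at 1 and dotted lines at the folds of 0.5 and 2. Hk2, which is in both lists, is drawn in blue. The points run from 142 for Ndrg1 at the top down to 0.444 for Igfbp3, the 1 HIF target past the fold on the lower side.

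Around glycolysis, the genes for storing glucose and exporting lactate differed and those of the pentose phosphate route did not pass the fold. Gbe1, the glycogen branching enzyme, had 39 UMIs in the hypoxia-response cells and 79 in the 0-UMI cells, a ratio of 10.0 (6.65 to 14.9). Ppp1r3c, which brings a phosphatase to glycogen and so activates glycogen synthase, had a ratio of 8.56 (6.34 to 11.5). Gys1, glycogen synthase itself, had one of 3.45 (2.33 to 4.99), and Pgm2, a phosphoglucomutase, one of 5.47 (4.43 to 6.72). Pfkfb3, which makes the main activator of phosphofructokinase, had a ratio of 9.35 (5.81 to 14.7), and Slc2a3, the high-affinity glucose transporter GLUT3, one of 22.6 (13.0 to 39.5). The 4 pentose phosphate genes lay near 1, with Tkt at 1.30 (1.12 to 1.503), G6pdx at 1.08 (0.640 to 1.70), Pgd at 1.07 (0.768 to 1.45) and Taldo1 at 1.03 (0.858 to 1.24). Slc16a1, the lactate carrier MCT1, was at 59.8 CPM in the hypoxia-response cells and 60.03 CPM in the 0-UMI cells, in contrast to the ratio of its relative Slc16a3. Of 18 listed genes 12 were compared, and 7 were higher past the fold, against 5.83% of all genes compared, and 0 lower, with a median ratio of 4.46. Of these 7, all but Pgm2 are also in the list of HIF targets and were already counted there. With the minimum set over all kept cells, 3 of 9 were higher, against 3.5% of all genes, and the median ratio was 1.08, with Slc16a3, Slc2a3, Pfkfb3 and Gbe1 no longer compared.

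The summed ratios of the mitochondrial genes lay below 1, slightly for the nuclear genes and more for the mitochondrially encoded genes. The 67 nuclear genes of the respiratory chain and ATP synthase summed to 44532 CPM in the hypoxia-response cells and 49120 CPM in the 0-UMI cells, a ratio of 0.907 (0.894 to 0.919). All 65 that were compared were within the fold, from 0.719 to 1.22. At 1500 UMIs per cell the hypoxia-response cells held 24, 66 and 104 of these UMIs in the lowest, the median and the highest cell, and the 0-UMI cells held 8, 73 and 144, so that the groups overlapped almost fully. The 10 mitochondrially encoded genes summed to 13863 CPM in the hypoxia-response cells and 19873 CPM in the 0-UMI cells, a ratio of 0.698 (0.680 to 0.715). At 1500 UMIs per cell the hypoxia-response cells held 2, 19 and 80 of these UMIs in the lowest, the median and the highest cell. The 0-UMI cells held 4, 29 and 115. The mitochondrially encoded genes did not move alike. The ratio was 0.507 (0.484 to 0.531) for mt-Nd1, 0.752 (0.721 to 0.785) for mt-Cytb and 1.29 (1.16 to 1.43) for mt-Co1, the core subunit of cytochrome oxidase.

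Of the 23 compared genes for the citric acid cycle and pyruvate entry, the 1 past the fold was Pdk3, a pyruvate dehydrogenase kinase and HIF target, with 25 UMIs in the hypoxia-response cells and 160 in the 0-UMI cells, a ratio of 3.18 (1.995 to 4.86). The enzyme that it restrains, Pdha1, was at 276 CPM in the hypoxia-response cells and 284 CPM in the 0-UMI cells. Over all genes compared, 5.83% were higher past the fold. With the minimum set over all kept cells, 0 of 22 genes of that list were higher, against 3.5% of all genes. Among 12 compared genes for mitophagy and autophagy, Bnip3l, the mitophagy receptor NIX and sister of the rule gene Bnip3, had a ratio of 6.04 (4.86 to 7.45). Wipi1, which acts in autophagosome formation, had one of 4.58 (2.98 to 6.85), and the other 10 were within the fold. These 2 of 12 stand against 5.83% of all genes compared. With the minimum set over all kept cells, 1 of 11 was higher, against 3.5% of all genes. Bnip3l is also in the list of HIF targets and was already counted there.

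Collagen-modifying enzymes depend on oxygen, and HIF induces several of them. P4ha2, a subunit of collagen prolyl hydroxylase, had 32 UMIs in the hypoxia-response cells and 22 in the 0-UMI cells, a ratio of 29.6 (16.7 to 53.4). Plod2, a collagen lysyl hydroxylase, had a ratio of 5.14 (4.11 to 6.38), and P4ha1 one of 4.11 (3.42 to 4.92). The other 5 compared genes of that list, among them those for matrix proteins, were within the fold. Thus 3 of 8 were higher, against 5.83% of all genes compared. With the minimum set over all kept cells, 2 of 7 were higher, against 3.5% of all genes. P4ha2, Plod2 and P4ha1 are also in the list of HIF targets and were already counted there. Ero1l, the oxidase that drives disulfide bond formation in the endoplasmic reticulum and a HIF target, had a ratio of 12.05 (9.66 to 14.98).

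Few genes for blood vessel signals beyond the rule gene Vegfa were measured well enough. Of 18 listed genes 6 were compared, 2 were higher past the fold, against 5.83% of all genes compared, and 1 was lower, against 2.79%. With the minimum set over all kept cells, 1 of 5 was higher and 1 lower. Adm, the vasodilator peptide adrenomedullin, averaged 271 CPM in the hypoxia-response cells and 75.6 CPM in the 0-UMI cells, a ratio of 3.59 (2.95 to 4.34). Adm is also in the list of HIF targets and was already counted there. Nrp1, a VEGF co-receptor, had 18 UMIs in the hypoxia-response cells and 164 in the 0-UMI cells, a ratio of 2.23 (1.29 to 3.64), which was 1.76 when the group was widened to 240 cells and 1.06 among cells without a UMI of 6 proliferation genes (Ube2c, Pcna, Rrm2, Cdk1, Top2a and Mki67). Angpt2, a ligand of the endothelial receptor Tie2 that low oxygen raises in endothelium, went the other way with 15 UMIs in the hypoxia-response cells and 686 in the 0-UMI cells, a ratio of 0.444 (0.247 to 0.738). Its ratio was between 0.505 and 0.630 under 5 other processing settings, past the fold no longer. The 1 HIF target past the fold on the lower side was Igfbp3, an insulin-like growth factor binding protein, at 395 CPM in the hypoxia-response cells and 891 CPM in the 0-UMI cells, a ratio of 0.444 (0.381 to 0.513), or 0.631 when the group was widened to 240 cells.

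Outside the lists, the named genes are the 15 with the highest ratios and the 10 with the lowest. The largest by count were the metallothioneins Mt1 and Mt2, small cysteine-rich proteins that bind zinc and copper. Mt1 averaged 10343 CPM in the hypoxia-response cells and 543 CPM in the 0-UMI cells, a ratio of 19.04 (18.3 to 19.8). Mt2 averaged 5093 CPM in the hypoxia-response cells and 117 CPM in the 0-UMI cells, a ratio of 43.5 (40.5 to 46.8). Mt1 was found in 113 of the 120 hypoxia-response cells, with 0, 49.1 and 557 UMIs per 10000 in the lowest, the median and the highest cell, against a median of 3.11 and a highest value of 98.8 in the 0-UMI cells. Mt2 was found in 95 of them, with a median of 16.1 and a highest value of 299 UMIs per 10000. The load was uneven: the 12 cells richest in each gene held 45.5% of the Mt1 UMIs and 49.7% of the Mt2 UMIs of the group. Mt3, the brain metallothionein, had a ratio of 1.64 (1.45 to 1.84).

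The promoters of this pair are shown because the 2 genes are neighbours and were both high. Metallothionein genes are known to be switched on by metal response elements, searched here as TGCACNC or TGCGCNC on both strands, overlaps included, where N is any base. The 250-base windows of 23.8% of all genes in the RefSeq table and of 36.1% of the matched genes compared here held at least 1 such match. Among the 42 matched HIF targets outside the rule, 22 (52.4%) held one. Capitals mark the match. Mt1 is at chr8:94178839-94179081 on the plus strand with 1 match, and Mt2 at chr8:94172368-94172617 on the plus strand with 3.
Mt1: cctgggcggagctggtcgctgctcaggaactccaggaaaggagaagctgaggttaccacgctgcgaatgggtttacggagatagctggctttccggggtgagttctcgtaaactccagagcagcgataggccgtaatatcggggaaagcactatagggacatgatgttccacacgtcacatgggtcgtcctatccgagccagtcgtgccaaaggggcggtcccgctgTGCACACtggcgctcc
Mt2: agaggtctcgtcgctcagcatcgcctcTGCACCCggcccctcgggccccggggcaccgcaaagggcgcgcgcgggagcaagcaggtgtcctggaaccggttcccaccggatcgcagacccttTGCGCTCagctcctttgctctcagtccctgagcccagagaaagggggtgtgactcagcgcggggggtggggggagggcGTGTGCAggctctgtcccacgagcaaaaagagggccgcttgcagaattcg

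Igfbp5, a secreted binding protein for insulin-like growth factors, had the highest ratio outside the lists, with 180 UMIs in 68 of the 120 hypoxia-response cells and 69 UMIs in 58 of the 0-UMI cells, a ratio of 53.01 (39.95 to 71.0). It stands in contrast to Igfbp3 of the same family. Mgarp, a mitochondrial protein known in other cells as a HIF-1 target, had 35 UMIs in the hypoxia-response cells and 18 in the 0-UMI cells, a ratio of 39.5 (21.8 to 74.1). Draxin, a secreted axon guidance protein, had a ratio of 37.7 (24.4 to 58.9), and Selenbp1, a selenium-binding protein, one of 34.3 (21.7 to 54.9). The imprinted long noncoding RNA H19 had 49 UMIs in the hypoxia-response cells, all in 10 cells, and 37 UMIs in 19 of the 0-UMI cells, a ratio of 26.9 (17.2 to 42.4). Cd82, a tetraspanin, had a ratio of 21.2 (11.5 to 39.3), and Cav1, the coat protein of caveolae, one of 20.3 (12.2 to 34.0). The other 6 were AI848285, Prelid2, Crip1, 3632451O06Rik, Vit and Cdo1, with ratios from 10.7 for Cdo1 to 36.9 for AI848285. Several of these genes were nearly silent in the 0-UMI cells, such as Igfbp5 at 7.25 CPM and H19 at 3.89 CPM. Such genes could pass the 20 CPM minimum only by being high in the hypoxia-response cells, so their high ratios are a description. The ranking was not repeated with the minimum over all kept cells.

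The genes with the lowest ratios outside the lists were seen in few hypoxia-response cells. Peg10, an imprinted gene derived from a retrotransposon, had 5 UMIs in the hypoxia-response cells and 491 in the 0-UMI cells, a ratio of 0.207 (0.0669 to 0.486), or 0.545 when the group was widened to 240 cells. Cdt1, which licenses replication origins, had 4 UMIs in the hypoxia-response cells and 391 in the 0-UMI cells, a ratio of 0.208 (0.0564 to 0.537), which was 1.92 in cells without a UMI of the 6 proliferation genes. Zcchc12, a zinc-knuckle transcriptional coactivator, had 17 UMIs in the hypoxia-response cells and 1568 in the 0-UMI cells, a ratio of 0.220 (0.128 to 0.354), and Trp53i11, a p53-inducible gene, had a ratio of 0.244 (0.161 to 0.356). The other 6, from Cox11 at 0.174 to Mesdc1 at 0.244 (0.666 with 240 cells), rest on 3 to 8 UMIs in the hypoxia-response cells.

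Summed over all cells of a group, the cell cycle genes split by phase, while the median per cell at equal depth was lower for both lists. The 43 genes of the S phase list summed to 2767 CPM in the hypoxia-response cells and 4282 CPM in the 0-UMI cells, a ratio of 0.646 (0.611 to 0.683). Of 39 compared, 10 were lower past the fold, against 2.79% of all genes, and 0 were higher, with a median ratio of 0.606. Ccne2, the cyclin of entry into S phase, had 15 UMIs in the hypoxia-response cells and 674 in the 0-UMI cells, a ratio of 0.452 (0.252 to 0.751). Hells, a chromatin remodeller of replicating cells, had one of 0.453 (0.309 to 0.643). Both calls were lost with 240 cells, at 0.794 for Ccne2 and 0.710 for Hells, and Hells was at 0.910 in cells without a UMI of the 6 proliferation genes. Ccne2 was at 0.513 without the deepest barcodes and at 0.512 with a 5% limit on mitochondrial UMIs. The 54 genes of the G2 and M list summed to 9682 CPM in the hypoxia-response cells and 9920 CPM in the 0-UMI cells, a ratio of 0.976 (0.947 to 1.01). This ratio ran from 0.891 to 1.05 over the alternatives, on either side of 1. Of 53 compared, 1 was higher past the fold, the ubiquitin ligase gene G2e3 at 2.15 (1.66 to 2.75), or 1.64 with 240 cells, and 0 were lower.

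The D-type cyclin genes Ccnd1 and Ccnd2 were near the lower fold. Ccnd1 averaged 1346 CPM in the hypoxia-response cells and 2440 CPM in the 0-UMI cells, a ratio of 0.552 (0.509 to 0.597), and Ccnd2 averaged 784 CPM in the hypoxia-response cells and 1507 CPM in the 0-UMI cells, a ratio of 0.520 (0.468 to 0.577). Among the cyclin-dependent kinase inhibitors, Cdkn1c, which encodes p57 and is imprinted, stood apart with 160 UMIs in the hypoxia-response cells and 90 in the 0-UMI cells, a ratio of 36.1 (27.7 to 47.3). Those UMIs came from 31 of the 120 cells, with up to 22 in 1 cell, and the 12 richest cells held 79.4% of them. Cdkn1b, which encodes p27, had a ratio of 1.94 (1.62 to 2.31), and Cdkn1a, which encodes p21, one of 0.876 (0.789 to 0.970). The anti-proliferative genes Btg1 and Btg2 had ratios of 2.64 (1.73 to 3.90) and 2.46 (2.07 to 2.89), just within the fold at 1.98 each with 240 cells. In cells without a proliferation UMI, Btg1 was at 0.926.

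A UMI of at least 1 of the 6 proliferation genes was found in 81 of the 120 hypoxia-response cells (67.5%) and in 1710 of the 2097 0-UMI cells (81.5%), at median depths of 3350.5 and 3895 UMIs. The HIF targets stood apart on both sides of this split. In cells without such a UMI, they summed to 13796 CPM in 39 hypoxia-response cells and 3832 CPM in 387 0-UMI cells. In cells with one, they summed to 9906 CPM in the hypoxia-response cells and 3227 CPM in the 0-UMI cells. Glycolysis genes summed to 13124 CPM in the hypoxia-response cells and 4027 CPM in the 0-UMI cells without a proliferation UMI, and to 10453 CPM in the hypoxia-response cells and 3756 CPM in the 0-UMI cells with one. Cdkn1c was at 249 CPM in the hypoxia-response cells and 14.1 CPM in the 0-UMI cells without a proliferation UMI, and at 374 CPM in the hypoxia-response cells and 8.74 CPM in the 0-UMI cells with one.

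Along the ranking by rule-gene share, the other genes changed over several steps, on both sides of the limit of 120 cells. Over ranks 1 to 40, 41 to 80 and 81 to 120 the other HIF targets summed to 15439, 10086 and 8246 CPM, over ranks 121 to 240 to 5576 CPM, and over ranks 241 to 480 to 3989 CPM, against 3308 CPM in the 0-UMI cells. Mt1 was at 18949, 8239 and 5740 CPM over the first 3 of these steps and 1748 and 809 CPM over the next 2. Mt2 was at 9992, 3838 and 2522 CPM inside the group and 543 CPM over ranks 121 to 240, and Igfbp5 at 604, 373 and 232 CPM inside it and 50.4 CPM over ranks 121 to 240. For Mt1, Mt2 and Igfbp5 the drop just past the limit was the largest in proportion of these steps. The steps widen at that limit from 40 to 120 cells, so the sizes of these drops cannot be compared and mark no break there. The S phase genes ran the other way with 1408, 3006 and 3571 CPM inside the group and 4411 CPM over ranks 121 to 240. Genes of G2 and M were at 5842 CPM over ranks 1 to 40, but at 12417 CPM over ranks 41 to 80 and 10222 CPM over ranks 81 to 120. Their level was thus lower in the 40 cells of highest share than in the rest of the group. It was also lower there than the 9920 CPM of the 0-UMI cells. The steps are ordered by the genes of the rule, and their order is a description.

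**Figure D3:**
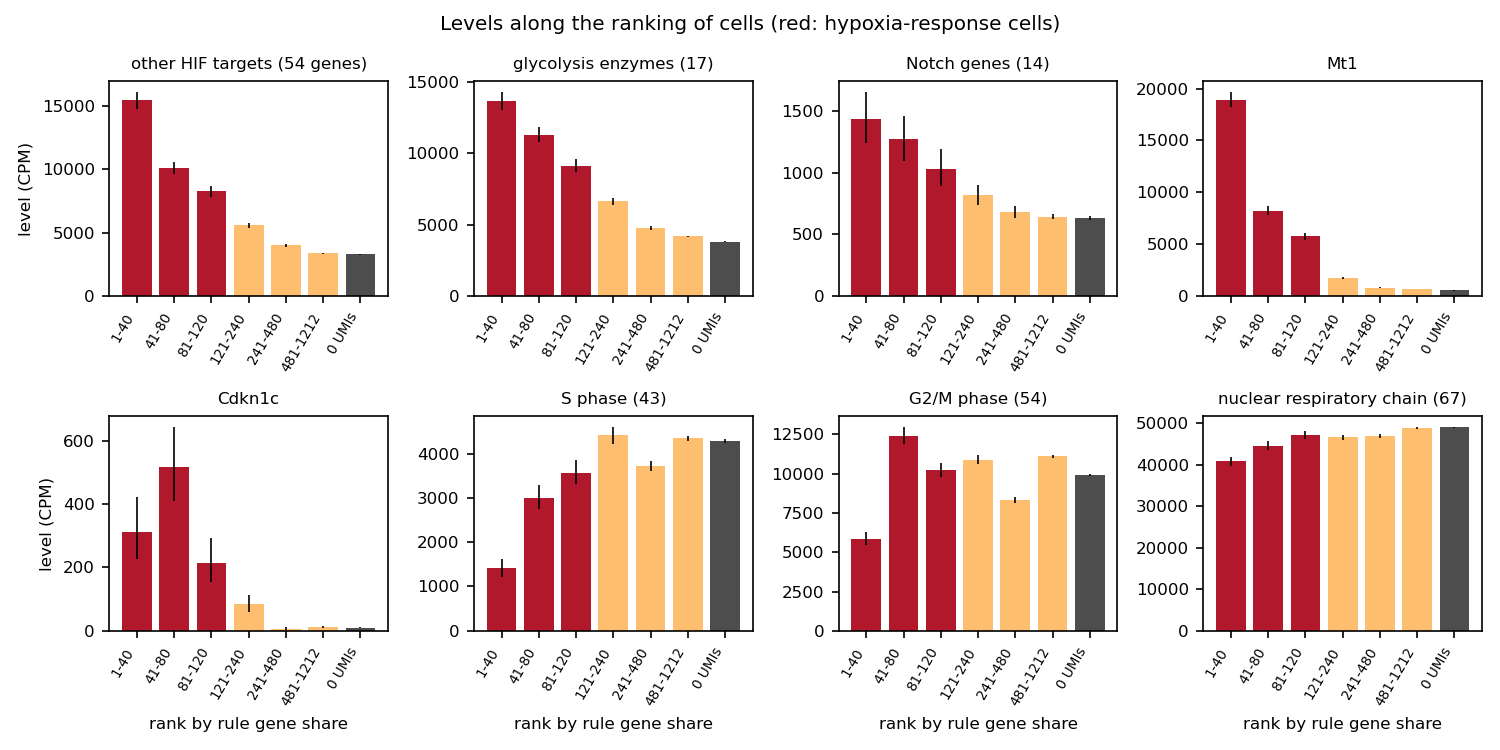
Level in CPM (vertical axes) of 6 gene lists and of Mt1 and Cdkn1c along the ranking of cells by rule-gene share (horizontal axes), with red bars for the hypoxia-response cells, orange bars for the cells between, grey bars for the cells with 0 UMIs and black lines for the exact 95% Poisson interval. HIF targets, glycolysis genes, Notch genes and Mt1 step down from left to right, Cdkn1c is high in the red bars, peaking at 517 CPM over ranks 41 to 80, and S phase genes are lowest at the left with 1408 CPM.

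The cells in which a single rule gene was seen were the least distinct. They numbered 14, with a median depth of 2114.5 UMIs, and their other HIF targets summed to 5396 CPM, between the 3308 CPM of the 0-UMI cells and the 11539 CPM of the 92 cells with 3 to 5 rule genes. Mt1 was at 2548 CPM in the 14 cells and 11579 CPM in the 92. Malat1 went the opposite way with 7824 CPM in the 14 cells and 4412 CPM in the 92.

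The high genes did not share 1 set of cells. Of the 10 cells with H19, all 10 held Igfbp5, 8 held Ndrg1 and 6 held Cdkn1c. Among all 120 hypoxia-response cells, 68 held Igfbp5, 38 held Ndrg1 and 31 held Cdkn1c. Of the 31 cells with Cdkn1c, 20 held Igfbp5, 20 held Slc16a3, 10 held Ndrg1, 10 held Hes5 and 6 held H19. In the whole group, 60 cells held Slc16a3, 44 held Hes5 and 10 held H19. These are counts of cells with a UMI, in a group with a median depth of 3350.5 UMIs, so a cell without one may still express the gene. The part of each cell's depth in these overlaps was not tested. Mt1 and Fam162a were in nearly every cell, and Cdkn1c, H19, Ndrg1 and Hes5 in a minority each.

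**Figure D4:**
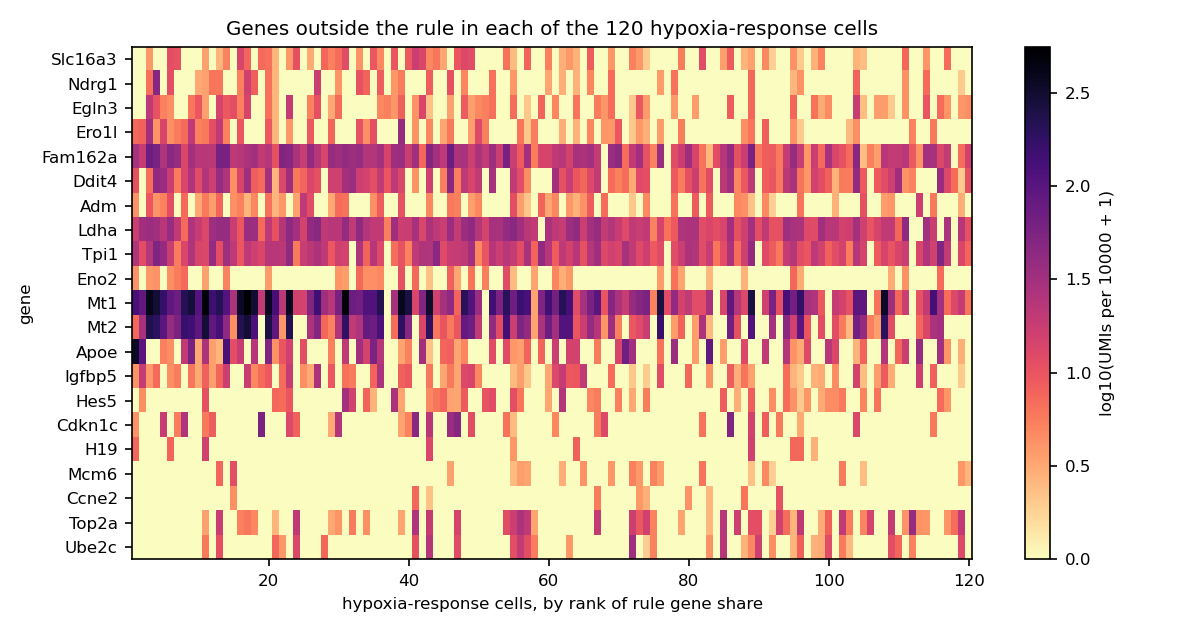
UMIs per 10000 of 21 genes outside the rule (rows) in each of the 120 hypoxia-response cells (columns, ordered by rank of rule-gene share), on a log10 scale with 1 added. Fam162a, Ldha, Tpi1 and Mt1 form nearly unbroken bands, with Mt1 reaching 557, while Cdkn1c and H19 appear in 31 and 10 scattered cells.

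Notch signalling, by which neighbouring cells hold each other in a progenitor state, was higher in part of its genes. The 14 listed genes summed to 1226 CPM in the hypoxia-response cells and 630.3 CPM in the 0-UMI cells, a ratio of 1.95 (1.78 to 2.12). At 1500 UMIs per cell both groups had a median of 1 UMI and a highest value of 8. Of 10 compared, 6 were higher past the fold, against 5.83% of all genes compared, and 0 lower, with a median ratio of 2.46. With the minimum set over all kept cells 3 of 7 were higher, against 3.5% of all genes, with a median ratio of 1.997. Hes5, a repressor that Notch induces in neural progenitors, averaged 256 CPM in the hypoxia-response cells and 53.3 CPM in the 0-UMI cells, a ratio of 4.81 (3.91 to 5.88), from 44 of the 120 cells. The Notch targets Nrarp and Hey1 had ratios of 3.51 (2.28 to 5.22) and 3.43 (2.23 to 5.10), and the ligand-like Dll3 one of 2.81 (2.05 to 3.79), or 1.88 when the group was widened to 240 cells. Hes1 was just within the fold at 1.96 (1.67 to 2.28). The receptor Notch1 was at 1.53 (1.07 to 2.12), and Lfng, which sugars Notch receptors, at 0.659 (0.486 to 0.876).

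The identity genes of neural progenitors differed little, and those of astrocytes differed more. The 16 radial glia genes summed to 18322 CPM in the hypoxia-response cells and 19354 CPM in the 0-UMI cells, a ratio of 0.947 (0.926 to 0.967), and all 14 compared were within the fold. Among them Sox2 was at 1.59 (1.41 to 1.78) and the intermediate filament Nes at 0.633 (0.553 to 0.721). The 17 astrocyte genes in the table summed to 7093 CPM in the hypoxia-response cells and 2304 CPM in the 0-UMI cells, a ratio of 3.08 (2.97 to 3.19), and 11 of 14 compared were higher past the fold, against 5.83% of all genes compared, and 0 lower. With the minimum set over all kept cells 9 of 12 were higher, against 3.5% of all genes. At 1500 UMIs per cell the hypoxia-response cells held 0, 9 and 106 of these UMIs in the lowest, the median and the highest cell, and the 0-UMI cells held 0, 3 and 72. No astrocyte gene was at 0 in the hypoxia-response cells, but the defining markers Gfap and Aqp4 were near it, with 2 UMIs of Gfap in the hypoxia-response cells and 5 in the 0-UMI cells, and 6 of Aqp4 in the hypoxia-response cells and 9 in the 0-UMI cells. The glycolysis gene Aldoc is in this list too.

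Apoe, the lipid carrier of astrocytes, averaged 1179 CPM in the hypoxia-response cells and 115 CPM in the 0-UMI cells, a ratio of 10.3 (9.27 to 11.4). It came from 68 of the 120 cells, and 1 cell alone held 111 of the 552 UMIs. Ttyh1, a membrane protein gene of the tweety family, had a ratio of 4.98 (4.32 to 5.73), and Cst3, a secreted protease inhibitor, one of 2.98 (2.80 to 3.17). The part of these astrocyte genes in the other results was not tested.

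Markers of non-neural cells were sparse. The 5 microglia genes in the table had 0 UMIs in the hypoxia-response cells, which allows up to 3, and 32 UMIs in the 0-UMI cells. The 10 endothelial genes had 23 UMIs in the hypoxia-response cells and 221 in the 0-UMI cells, with 6 of the 10 genes at 0 in the hypoxia-response cells, Pecam1, Kdr, Flt1 and Cldn5 among them. Of those 23 UMIs 18 were of Egfl7, which had a ratio of 8.31 (4.52 to 14.7). The choroid plexus list rested on Otx2, a transcription factor, with 68 UMIs in the hypoxia-response cells and 254 in the 0-UMI cells, a ratio of 5.44 (4.10 to 7.14), while the other 3 genes of the list in the table were at 0 in the hypoxia-response cells. Immature neuron genes summed to 679 CPM in the hypoxia-response cells and 1037 CPM in the 0-UMI cells, a ratio of 0.655 (0.584 to 0.733). The 1 gene of that list past the fold was Gap43, the growth cone protein, at 0.276 (0.215 to 0.350).

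**Figure D5:**
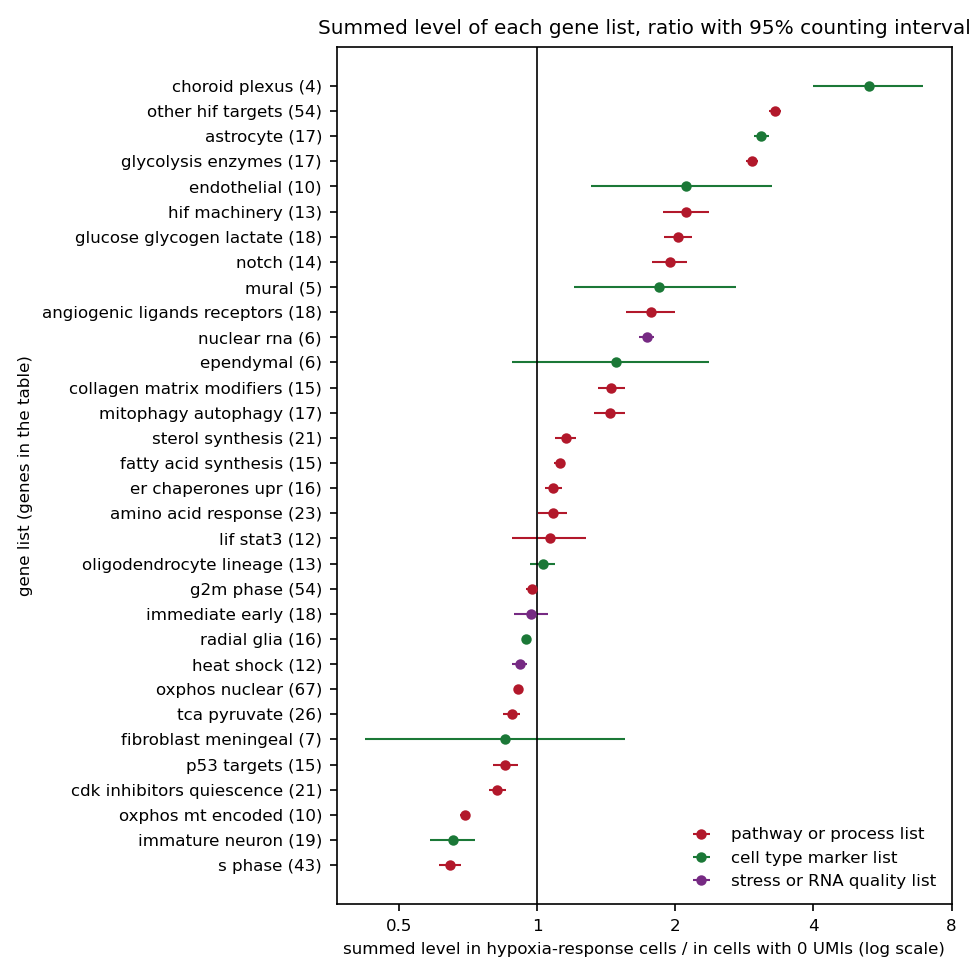
Ratio of the summed level in the hypoxia-response cells to that in the cells with 0 UMIs of the rule genes (horizontal axis, log scale) for each gene list with at least 100 UMIs in the cells with 0 UMIs of the rule genes, with the number of genes in the table in brackets and bars for the 95% counting interval. Red marks pathways, green cell type markers and purple stress and RNA quality lists. The HIF targets at 3.30, the astrocyte genes at 3.08 and glycolysis at 2.94 lie far to the right, S phase genes at 0.646 lie at the bottom, and the choroid plexus point at the top is Otx2 alone.

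Other stress programmes were near even. Genes of the amino acid response summed to a ratio of 1.08 (1.005 to 1.16), with Ddit3, the stress factor CHOP, at 3.30 (2.20 to 4.81), or 1.70 in cells without a proliferation UMI, and its regulator Atf4 at 0.882 (0.719 to 1.07). Chaperones of the endoplasmic reticulum were at 1.09 (1.04 to 1.13), p53 targets at 0.853 (0.801 to 0.907), immediate early genes at 0.969 (0.889 to 1.06) and heat shock genes at 0.916 (0.882 to 0.950). Over ranks 1 to 40, 41 to 80 and 81 to 120, amino acid response genes were at 2831.5, 1218 and 1275 CPM, against 1576 CPM in the 0-UMI cells. The chaperones were at 5894, 4539 and 4520.5 CPM, against 4533 CPM. Over ranks 1 to 40 p53 targets were at 1826 CPM, heat shock genes at 6065 CPM and immediate early genes at 1051 CPM. In the 0-UMI cells these lists were at 2634, 6934 and 1245 CPM. The LIF receptor and STAT3 genes, which report the growth factor of the culture, were at 1.06 (0.881 to 1.28). Sterol synthesis genes were at 1.15 (1.096 to 1.22) and fatty acid genes at 1.12 (1.09 to 1.15), where Fabp5, a fatty acid carrier, was past the fold at 2.76 (2.52 to 3.01). The nuclear RNA list was higher at 1.73 (1.66 to 1.80), carried by Malat1 at 1.70 (1.63 to 1.78).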

How the data were processed

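Polyadenylated RNA of LIF-grown primary neurospheres was captured by Drop-seq and sequenced to a planned 60000 reads per cell, per the labels' protocols. The authors deposited 1 table of unnormalized UMI counts for 19144 genes and 4000 barcodes (17591915 UMIs), and the submitters' processing notes name genome build mm10. Not given in the sources used here are the aligner, the counting step and its use of strand. No label or column assigns barcodes to the 2 samples, so the table was analysed as 1 sample with no test.

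Barcodes with at least 500 genes, at most 10% mitochondrial UMIs and at least 1500 UMIs were kept. Of the 4000, 132 had too few genes, 148 too many mitochondrial UMIs and 672 too few UMIs, and 691 were left out by any limit. No doublets were removed and no caller was run, so a deep barcode can be 2 cells. Of the 3309 kept barcodes 247 hold an unread base, 8 of them hypoxia-response cells.

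From the deposited counts, levels were computed as summed UMIs per 1000000 (CPM), with exact Poisson intervals. Ratios of CPM have exact conditional binomial intervals. These 95% intervals cover counting error only and not the spread between cells, cultures or animals. A count of 0 allows up to 3 counts. The fold, the 20 CPM minimum and the gene lists (34, with 601 of 637 entries in the table) were chosen with earlier results of these data known, as were the members themselves. Any gene of the lists may be named, and outside them the 15 genes with the highest and the 10 with the lowest ratio, leaving out rule, mitochondrial and ribosomal protein genes. Cells were thinned at random (seed 1) for values per cell at 1500 UMIs. For gene positions, 17959 of the 19144 symbols (93.8%) matched GENCODE M21, also on mm10. Promoters came from RefSeq. The comparison was tested on simulated data. The counts of genes past the fold were recomputed under 15 other settings, and list ratios and named genes under the 11 of these that change such a value. A further setting, chosen after the data were seen, was run for all of them. The closing section gives the effect. Python 3.11.15, numpy 2.4.6, pandas 2.3.3, scipy 1.17.1 and matplotlib 3.10.9 were used.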

Additional observations from a re-analysis of the deposited data

How the results depend on the processing

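No paired analysis was possible because there is 1 group and the barcodes carry no sample or replicate, and for the same reason no replicate could be left out. Of 115 named genes, 82 were past the fold, and under the 12 settings that give a value per gene, 1 of them chosen after seeing the data, 982 of their 984 values kept the direction and 958 stayed past the fold, with 66 genes past it in all 12. Settings that changed only the CPM minimum or the call rule were run for the counts of genes alone. The exceptions in direction were Btg1 at 0.926 and Cdt1 at 1.92, both in cells without a proliferation UMI. Genes higher past the fold (399) numbered 623 with every cell thinned to 1500 UMIs, 718 with 60 cells, 178 with 240 cells, 826 in cells without a proliferation UMI, 162 at 50 CPM, 1031 at 5 CPM and 236 with the minimum over all kept cells. Genes lower past the fold (191) numbered 421 thinned, 584 with 60 cells, 34 with 240 cells, 586 without a proliferation UMI, 53 at 50 CPM, 520 at 5 CPM and 55 where the whole interval had to pass 1.5. The HIF target ratio was 3.42 thinned, 4.24 with 60 cells, 2.50 with 240, 3.17 against all other kept cells, 3.05 without barcodes that hold an unread base or lie 1 base from another, 3.60 without a proliferation UMI and 3.49 in cells with 3 or more rule genes, the setting chosen after seeing the data. The glycolysis ratio was 3.45, 2.35, 2.74, 2.80, 3.26 and 3.09 under the last 6 of these. The S phase ratio was 0.603 with cells weighted equally, 0.460 with 60 cells, 0.836 with 240, 0.691 at 5% mitochondrial UMIs, 0.703 without those barcodes and 0.591 without a proliferation UMI. The ratio for G2 and M genes was 0.893 with cells weighted equally, 0.891 thinned, 1.03 in cells of at least 3000 UMIs, 1.02 without the deepest barcodes, 1.04 with 240 cells, 0.946 against all other kept cells, 1.01 at 5% mitochondrial UMIs, and 1.05 both without those barcodes and without a proliferation UMI. The Notch ratio was 2.17 with 60 cells, 1.62 with 240 and 2.19 without a proliferation UMI. The ratio for nuclear respiratory genes was 0.886 with cells weighted equally, 0.890 thinned, 0.931 in cells of at least 3000 UMIs, 0.861 with 60 cells, 0.928 with 240, 0.839 without a proliferation UMI and 0.927 with 3 or more rule genes. The cause of these shifts was not tested. Depth limits the low genes most: Ndufa4l2, Car9 and Car12 rest on 21, 18 and 14 UMIs in the hypoxia-response cells.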

Other observations

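Barcodes outside the comparison also held HIF target and glycolysis transcripts. The 456 barcodes that passed the limits on genes and mitochondrial UMIs but had fewer than 1500 UMIs, with a median of 1076, held the 54 HIF targets outside the rule at 4045 CPM (3869 to 4225), against 3645 CPM (3616 to 3674) over all 3309 kept cells, and the glycolysis genes at 4127 CPM (3950.3 to 4310), against 4260 CPM (4229 to 4291). The 148 barcodes with over 10% mitochondrial UMIs, with a median of 860.5 UMIs, held the HIF targets at 3509 CPM (3214 to 3824) and the glycolysis genes at 2923 CPM (2655 to 3212).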
